A study of Mus musculus with 288 samples.

Results

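Lung, heart, liver, kidney, muscle and cerebellum of the mouse were compared here through 6 genes of the red blood cell, out of 35904 genes quantified. The genes were Hba-a1 and Hba-a2, which encode the α chains of adult hemoglobin, Hbb-bs and Hbb-bt, which encode its β chains, Alas2, the heme-synthesis enzyme of developing red cells, and Slc4a1, the band 3 anion exchanger of the red cell membrane. They were chosen by name as hemoglobin chains and erythroid genes that report the blood content of a tissue, and all 6 were found in every library. The mice were wild-type male C57BL/6J animals aged 8 weeks. The normoxia group breathed room air, and the intermittent hypoxia (IH) group was exposed for 7 days, during the light phase, to oxygen that cycled between 21% and 8%. Both groups were then kept in normoxia and constant darkness, and lung, heart, liver, kidney, skeletal muscle and cerebellum were collected on the second day of darkness, so every library was made after the exposure had ended. Each organ and treatment has 24 libraries, 3 at each of 8 time points from 1:30 to 22:30. Bulk RNA was sequenced from ground tissue, and the sources used here do not say whether the organs were flushed of blood.

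Hemoglobin is a tetramer of α and β chains, each holding a heme group whose iron binds oxygen. The globin genes and Alas2 are switched on late in red cell development, in bone marrow and spleen, by factors such as Gata1 and Klf1. A reticulocyte, the young red cell that has expelled its nucleus, keeps part of this RNA for some time in the circulation, so RNA of an organ that holds blood can carry globin transcripts. Slc4a1 has a further site of expression, the acid-secreting intercalated cells of the kidney collecting duct, which use a shorter form of the protein.

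The α genes lie on chromosome 11 and the β genes on chromosome 7. On GRCm38, Hba-a1 spans chr11:32283511-32284465 and Hba-a2 chr11:32296489-32297298, both on the plus strand, while Hbb-bs spans chr7:103826534-103828096 and Hbb-bt chr7:103812524-103813996, both on the minus strand. Each of these genes has 3 exons. Alas2 lies at chrX:150547375-150570638 (plus strand, 11 exons) and Slc4a1 at chr11:102348824-102366203 (minus strand, 20 exons). The sequences just upstream of the RefSeq start sites are shown for the α gene Hba-a1, both β genes and Alas2, because these transcripts moved together across libraries. They are the 250 bases before the start, from RefSeq on GRCm38.p6, written 5′ to 3′ on the gene's own strand, with matches to the motifs searched in capitals. A promoter of Slc4a1 was not used here.
Hba-a1: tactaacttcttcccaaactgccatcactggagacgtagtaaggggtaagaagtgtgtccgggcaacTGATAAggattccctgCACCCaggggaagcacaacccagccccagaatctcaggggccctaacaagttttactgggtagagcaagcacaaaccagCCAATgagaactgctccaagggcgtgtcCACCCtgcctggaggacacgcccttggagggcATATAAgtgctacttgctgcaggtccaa
Hbb-bs: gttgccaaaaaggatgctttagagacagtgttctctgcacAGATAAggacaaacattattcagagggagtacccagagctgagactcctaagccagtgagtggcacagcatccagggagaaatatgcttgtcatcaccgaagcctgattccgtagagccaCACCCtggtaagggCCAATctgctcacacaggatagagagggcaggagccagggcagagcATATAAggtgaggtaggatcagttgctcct
Hbb-bt: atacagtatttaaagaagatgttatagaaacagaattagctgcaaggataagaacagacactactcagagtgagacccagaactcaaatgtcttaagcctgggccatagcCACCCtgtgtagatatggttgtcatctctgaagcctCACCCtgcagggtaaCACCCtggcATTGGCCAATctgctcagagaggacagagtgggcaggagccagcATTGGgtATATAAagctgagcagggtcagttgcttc
Alas2: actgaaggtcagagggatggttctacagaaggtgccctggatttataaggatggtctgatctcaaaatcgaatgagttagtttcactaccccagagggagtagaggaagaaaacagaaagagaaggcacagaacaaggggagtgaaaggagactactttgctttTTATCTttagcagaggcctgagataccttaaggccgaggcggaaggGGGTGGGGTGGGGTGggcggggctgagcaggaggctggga
These windows are chr11:32283422-32283671 for Hba-a1, chr7:103827929-103828178 for Hbb-bs, chr7:103813924-103814173 for Hbb-bt and chrX:150547167-150547416 for Alas2. The gene positions above are from GENCODE, whose starts differ from the RefSeq starts. Each window therefore reaches into the span given for its gene. Each motif was read on both strands. The GATA element was searched as AGATAA and, in the same search, as TGATAA. The second motif was CACCC, known from Klf1 binding. The CAAT box was searched as CCAAT. The TATA-type element was searched as ATATAA. Among 32851 promoters of 300 bases (250 before and 50 after the start), 18.6% held the GATA element, 57.5% held CACCC, 37.4% held the CAAT box and 9.82% held the TATA-type element, and 0.533% held all of these. Hba-a1 and Hbb-bs held all of them, with the TATA-type element beginning at positions -28 and -30 from the start. Hbb-bt held the others but no match to the GATA letters, and Alas2 held the GATA element and CACCC only. A match of letters is a description of the window and not evidence of binding.

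The gene copies limit what can be read from single globin rows. The promoters of Hba-a1 and Hba-a2 shared an unbroken run of 297 bases, and their coding sequences differed at 1 of 426 bases. Of the 31-base words in the transcript compared for each gene, 71.3% of those of Hba-a1 were also in Hba-a2, and 91.0% in the other direction. The coding sequences of Hbb-bs and Hbb-bt differed at 1 of 441 bases, with 66.9% and 59.4% of words shared. The division of reads between the copies of a pair is therefore uncertain. Hba-a1 and Hbb-bs shared 0 words.

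The organ labels held against organ markers in the libraries as groups, but single libraries went against them. The summed level of 5 liver markers, which include albumin, had a median of 50165 TPM (transcripts scaled to a fixed total per library) in liver libraries, but was 1055 TPM in 1 of them, the IH library of replicate 2 at 13:30, where 5 heart muscle markers summed to 5044 TPM. In the cerebellum, the IH library of replicate 3 at 1:30 had 275 TPM of cerebellum markers against a median of 3081 TPM, and 5592 TPM of heart markers. In all, 5 of 48 cerebellum libraries (2 in normoxia and 3 after IH) held more heart than cerebellum markers, among them the IH library of replicate 1 at 10:30 (1175 TPM of cerebellum and 3313 of heart markers) and the normoxia library of replicate 1 at 4:30 (1109.8 and 2446 TPM). Within liver and within cerebellum, treatment differences of globin genes are also given without the lowest library of the organ, and in cerebellum also without all 5. The contrasts of these organs with lung keep all of these libraries. Other markers were high in single libraries as well. Skeletal muscle markers reached 5774 TPM in a normoxia cerebellum library, where cerebellum markers reached at most 4431 TPM in that group. Among normoxia heart libraries, lung markers reached 2001 TPM and T cell markers 1354 TPM. No library was left out on the basis of these markers. The files hold TPM only, which keep no record of sequencing depth, and the labels do not say which libraries came from the same mouse. P-values therefore measure the spread between libraries.

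Hemoglobin transcripts were abundant in lung and heart and scarce in liver (the plot of levels by organ). Hbb-bs, the main β gene by level, ranged in normoxia from 13234.5 to 64516.5 TPM in lung (median 23277) and from 10637 to 56051 TPM in heart (median 24568). The cerebellum lay lower, at 2819 to 11097 TPM with a median of 8128. Kidney and muscle were lower still. Kidney libraries ran from 1445 to 3361 TPM (median 2083) and muscle libraries from 1229 to 4459 TPM (median 1827). The liver had the lowest level, from 674 to 1587 TPM with a median of 1093. Lung and heart did not overlap with kidney, muscle or liver in any normoxia library. Together the 4 globin rows took a median of 6.33% of all TPM in normoxic lung, 5.78% in heart, 1.83% in cerebellum, 0.455% in muscle, 0.418% in kidney and 0.266% in liver. The highest single share was 17.5%, in an IH lung library. In a bulk sample, fewer red cells and less globin RNA per red cell cannot be told apart.

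**Figure D1:**
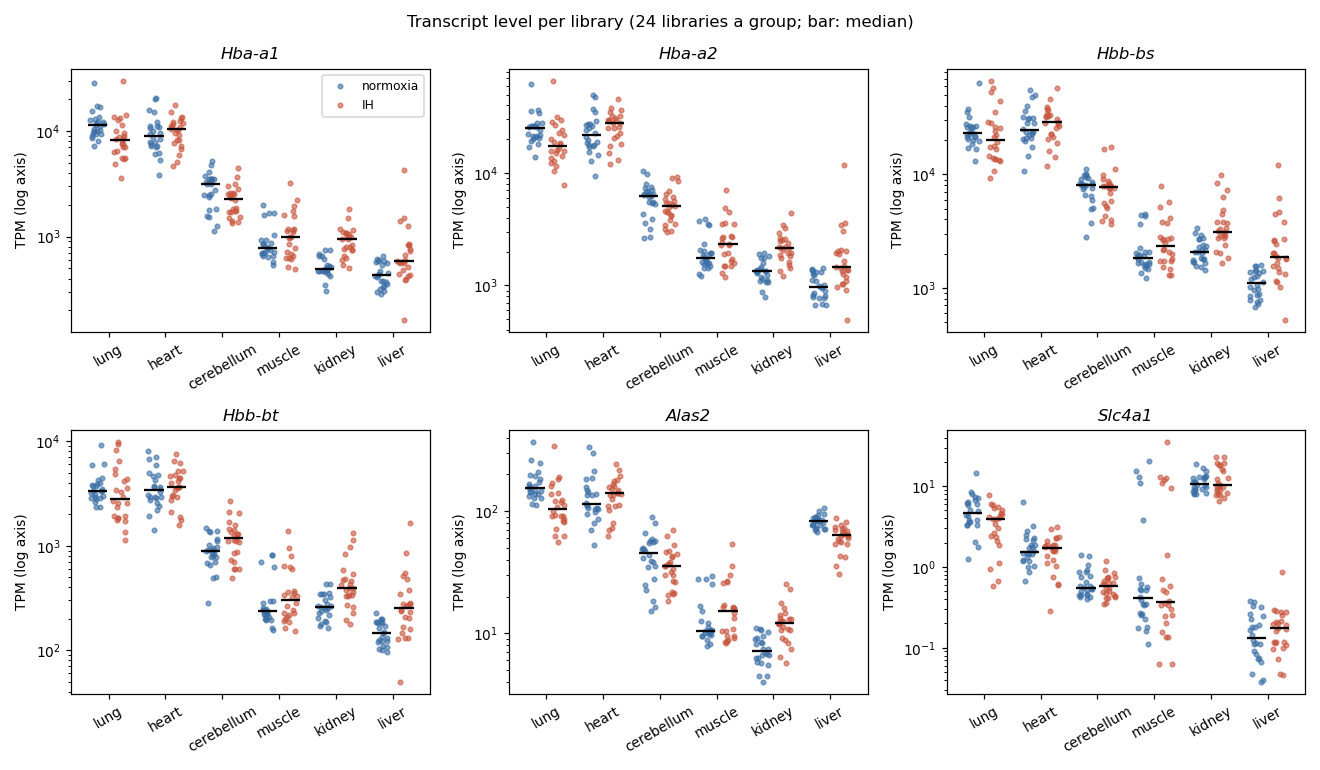
TPM of each gene in every library, by organ and treatment, on a log axis; each point is 1 library and each black bar the median of 24. The globin rows run from lung and heart at the top to liver at the bottom, whereas Alas2 was higher in liver than in cerebellum and Slc4a1 was highest in kidney.

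The order of organs was tested between neighbours in mean level, with limma on log2(TPM + 0.5) of the normoxia libraries, and 24 of 30 neighbouring levels differed at an adjusted p of 0.05, against 86.4% of all gene and organ pairs tested. These shares are of unlike sets. The 86.4% covers all 15 pairs of organs for every gene, and the 30 are only the pairs closest in level. For the α genes the means ran lung, heart, cerebellum, muscle, kidney, liver. Hba-a1 averaged 12114 ± 4397 TPM (SD, n = 24) in lung and 10035.5 ± 4288 in heart, a log2 difference of 0.32 (adjusted p = 0.0227, but 0.168 without replicate 1 and 0.117 without replicate 3), and its kidney and liver levels of 521 ± 112 and 446 ± 116 TPM gave no difference past the test (adjusted p = 0.0928). Hba-a2 averaged 25931 ± 9546 TPM in lung and 24077 ± 9957 in heart, with no difference past the test (adjusted p = 0.284). For the β genes no difference between heart and lung passed the test. Hbb-bs averaged 28282 ± 11245 TPM in heart and 25506 ± 10075 in lung (adjusted p = 0.374), and its kidney and muscle means of 2152 ± 529 and 2148 ± 981 TPM gave none either (adjusted p = 0.627). The same pairs of organs did not pass for Hbb-bt (adjusted p = 0.900 and 0.666), whose means were 3844 ± 1688 in heart and 3775 ± 1482 in lung. For Hba-a2, muscle and kidney did not differ without replicate 3 (adjusted p = 0.299), nor kidney and liver without replicate 1 (adjusted p = 0.0573). TPM is a share of each library, and the order of the top and bottom organs depends on the scale. When libraries were scaled across organs by the median of ratios, the log2 difference of lung from heart became -0.89 for Hba-a1 and -1.06 for Hba-a2, heart exceeded lung by 1.33 for Hbb-bs and 1.19 for Hbb-bt, and the difference of kidney from liver became -0.56 for Hba-a1 and -0.39 for Hba-a2.

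Alas2, which encodes the enzyme that makes δ-aminolevulinic acid in red cell precursors, did not follow the globins in liver. Its normoxia levels were 113 to 365 TPM in lung (median 156), 52.7 to 332 in heart (median 115), 67.7 to 105 in liver (median 82.3), 15.1 to 89.0 in cerebellum (median 45.5), 7.91 to 29.4 in muscle (median 10.504) and 4.03 to 11.03 in kidney (median 7.19). All 5 neighbouring pairs in this order differed (adjusted p of 0.00901 or less), but lung and heart did not without replicate 3 (log2 0.22, adjusted p = 0.185). On TPM as deposited, liver thus had the third highest Alas2 and the lowest of each globin. After scaling by the median of ratios, liver did not differ from muscle for Hbb-bs (muscle minus liver 0.26, adjusted p = 0.101). Nor did it differ from kidney for Hbb-bt (kidney minus liver 0.02, adjusted p = 0.935). The ratio of Alas2 to Hbb-bs within a library had a median of 0.0727 in normoxic liver, and between 0.00334 and 0.00653 in the other organs. After scaling by the median of ratios, lung fell below heart for Alas2 as well (log2 difference -0.82), and heart and liver no longer passed (adjusted p = 0.0545).

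Slc4a1 was a low transcript with its own order. Kidney libraries held 8.03 to 18.9 TPM in normoxia (median 10.8), all of them above the lung median of 4.63 TPM (1.27 to 14.4). Heart ranged from 0.663 to 6.33 TPM (median 1.54), cerebellum from 0.401 to 1.42 (median 0.556) and liver from 0.0381 to 0.376 (median 0.134). Kidney exceeded lung by 1.16 on the log2 scale (adjusted p = 8.21e-07). A list of 8 genes of renal intercalated cells, the cells that also use band 3, summed to 137 to 223 TPM in normoxic kidney and had a median of 22.0 TPM or less in each other organ in normoxia. Muscle held 2 kinds of library. Its median was 0.407 TPM and its highest value 20.5 TPM, so its mean of 2.95 TPM stood above that of the heart, 1.86 TPM, while on the log2 scale muscle stood below heart (-0.57, adjusted p = 0.0165, but -0.30 with adjusted p = 0.388 without replicate 1 and -0.17 with adjusted p = 0.639 without replicate 2).

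Within an organ the globin rows and Alas2 rose and fell together from library to library. In 60 correlations of log2 levels over 24 libraries, 56 passed at an adjusted p of 0.05 from 100000 permutations, of which 1e-05 is the smallest raw p they can give. Over the 12 groups, Pearson's r between Hba-a1 and Hbb-bs lay between 0.70 in normoxic kidney (Spearman's rho 0.76, p = 0.00015, adjusted p = 0.000173, 0.69 without the 2 libraries farthest from the median) and 0.99 in normoxic lung (rho 0.99, p = 1e-05, adjusted p = 1.28e-05, 0.98 without 2). These pairs share the library and its composition. Alas2 and Hbb-bs were related in 11 of 12 groups, with r = 0.98 in heart after IH (rho 0.97, p = 1e-05, adjusted p = 1.28e-05, 0.98 without 2). The exception was normoxic liver, where r was 0.17 (rho 0.14, p = 0.422, adjusted p = 0.429, 0.05 without 2). In liver after IH the same relation had r = 0.84 (rho 0.81, p = 1e-05, adjusted p = 1.28e-05, 0.78 without 2), and 0.53 on TPM as deposited. The difference between these correlations was not tested.

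Slc4a1 followed Hbb-bs less regularly. In normoxia r was 0.34 in cerebellum (rho 0.31, p = 0.0962, adjusted p = 0.0995, 0.26 without 2), 0.40 in lung (rho 0.26, p = 0.0565, adjusted p = 0.0595, 0.21 without 2) and -0.16 in liver (rho -0.11, p = 0.450, adjusted p = 0.450, -0.11 without 2), none of which passed. Of the relations outside kidney and muscle, 5 passed and were positive. Heart gave r = 0.74 in normoxia (rho 0.69, p = 3e-05, adjusted p = 3.75e-05, 0.66 without 2) and 0.62 after IH (rho 0.66, p = 0.00126, adjusted p = 0.0014, 0.69 without 2). After IH r was also 0.82 in liver (rho 0.69, p = 1e-05, adjusted p = 1.28e-05, 0.70 without 2), 0.74 in lung (rho 0.70, p = 6e-05, adjusted p = 7.06e-05, 0.68 without 2) and 0.61 in cerebellum (rho 0.52, p = 0.0008, adjusted p = 0.000906, 0.59 without 2). The cerebellum relation did not pass on TPM as deposited (r = 0.27, rho 0.21, permutation p = 0.201). Slc4a1 was at 0.347 to 1.19 TPM in those libraries. The liver values of Slc4a1 are all below 1 TPM. In kidney the relation was negative. It reached r = -0.73 after IH (rho -0.71, p = 6e-05, adjusted p = 7.06e-05, -0.71 without 2), so kidney libraries with more Hbb-bs had less Slc4a1. Both genes differed there by replicate number. Replicates 1, 2 and 3 had medians of 10.1, 8.76 and 18.9 TPM for Slc4a1 and 3337, 4043 and 2736 TPM for Hbb-bs. The part of replicate number in this relation was not tested. The normoxic kidney gave r = -0.60 (rho -0.52, p = 0.00215, adjusted p = 0.00235), which was -0.39 without the 2 farthest libraries and -0.30 on TPM as deposited, where p was 0.151. No r of Slc4a1 or Alas2 is given for muscle, whose libraries fell into separate groups in both genes.

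**Figure D2:**
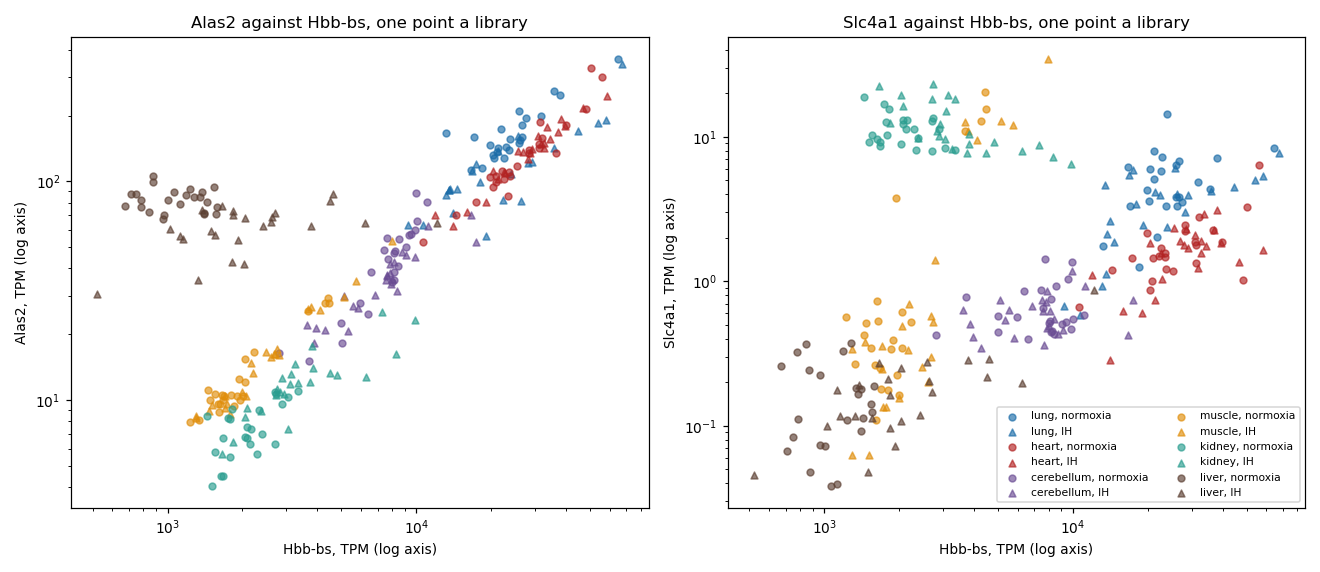
Alas2 and Slc4a1 (TPM, log axes) against Hbb-bs in each library, colored by organ, 1 point a library. The median ratio of Alas2 to Hbb-bs in normoxia is 0.0727 in liver and at most 0.00653 elsewhere, which sets the liver points above the others, and Slc4a1 in kidney stays between 6.52 and 23.0 TPM across the range of Hbb-bs.

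The genes most like Hbb-bs were sought among 13734 genes by the mean of Pearson's r with Hbb-bs over organs, each over 48 libraries after the mean of each treatment was removed. The other members had a mean r of 0.98 for Hbb-bt, 0.95 for Hba-a2, 0.93 for Hba-a1, 0.88 for Alas2 and 0.40 for Slc4a1. Among the highest of the remaining genes were Isg20 (0.86), Ube2l6 (0.84), Tspo2 (0.76, over 4 organs), Hbq1b (0.70, over 4 organs), Mkrn1 (0.67), Marchf2 (0.66) and Ctla2a (0.65). Hbq1b encodes a minor α-like globin, and its r with Hbb-bs was 0.91 in heart and 0.25 in cerebellum. In all, 322 genes had a mean r over 0.5. These are descriptions over libraries that share an organ and its scaling.

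After IH, hemoglobin transcripts rose in kidney. Hba-a1 ranged there from 306 to 752 TPM in normoxia (median 488) and from 507 to 1816 TPM after IH (median 946), 1.81-fold higher (log2 0.85 ± 0.12 SE, n = 24 and 24, limma adjusted p = 9.65e-07). Hba-a2 went from 794 to 1951 TPM (median 1333) to 1221 to 4398 TPM (median 2164), 1.67-fold higher. The ranges of both α genes overlapped, with the highest IH libraries above every normoxia library. Hbb-bs had a median of 2083 TPM in normoxia and 3124 TPM after IH, where it ran from 1661 to 9862 TPM, 1.70-fold higher (log2 0.76 ± 0.16, adjusted p = 0.00048). Hbb-bt ran from 163 to 430.3 TPM (median 258) and from 180.0 to 1329 TPM (median 390.1), 1.68-fold higher (adjusted p = 0.00171). Alas2, although at low level, rose 1.64-fold, from 4.03 to 11.03 TPM (median 7.19) to 5.69 to 25.4 TPM (median 12.1, adjusted p = 6.15e-05). Slc4a1 stayed at 8.03 to 18.9 TPM (median 10.8) and 6.52 to 23.0 TPM (median 10.3), a log2 difference of 0.12 ± 0.11 that did not pass (adjusted p = 0.443). A gene was called where its adjusted p was 0.05 or less and its fold at least 1.5, with libraries scaled by the median of ratios. By this rule 5 of the 6 genes were called in kidney, all higher after IH, where 0.783% of 12902 genes were called and 0.411% were called higher. The median log2 difference of the 6 genes was 0.74, against -0.01 over all genes.

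The kidney difference was spread over the day and over replicate numbers. The mean of 3 libraries was higher after IH at 8 of 8 time points for Hba-a1, Hba-a2, Hbb-bs and Alas2 and at 7 of 8 for Hbb-bt, and at 6 time points all 3 IH libraries held more Hba-a1 than all 3 normoxia libraries. At 7:30, Hbb-bs was at 1744, 1445 and 1677 TPM in normoxia and at 4481, 9862 and 2750.4 TPM after IH. At 22:30, it was at 2164, 2893 and 2298 TPM in normoxia and at 2932, 3057 and 1661 TPM after IH, and the treatments overlapped. With each replicate number fitted alone, the log2 difference of Hbb-bs was 0.64, 1.18 and 0.48. Without replicate 2, Hbb-bs fell to 0.56 (adjusted p = 0.0236) and Hbb-bt to 0.52 (adjusted p = 0.0516), both below 1.5-fold, and 3 genes remained called by the same rule. With a covariate for how many genes a library detected, 3 were called too. Heart markers summed to at most 5.004 TPM in any kidney library, and the medians of the platelet list were 16.2 TPM in normoxia and 16.6 TPM after IH.

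**Figure D3:**
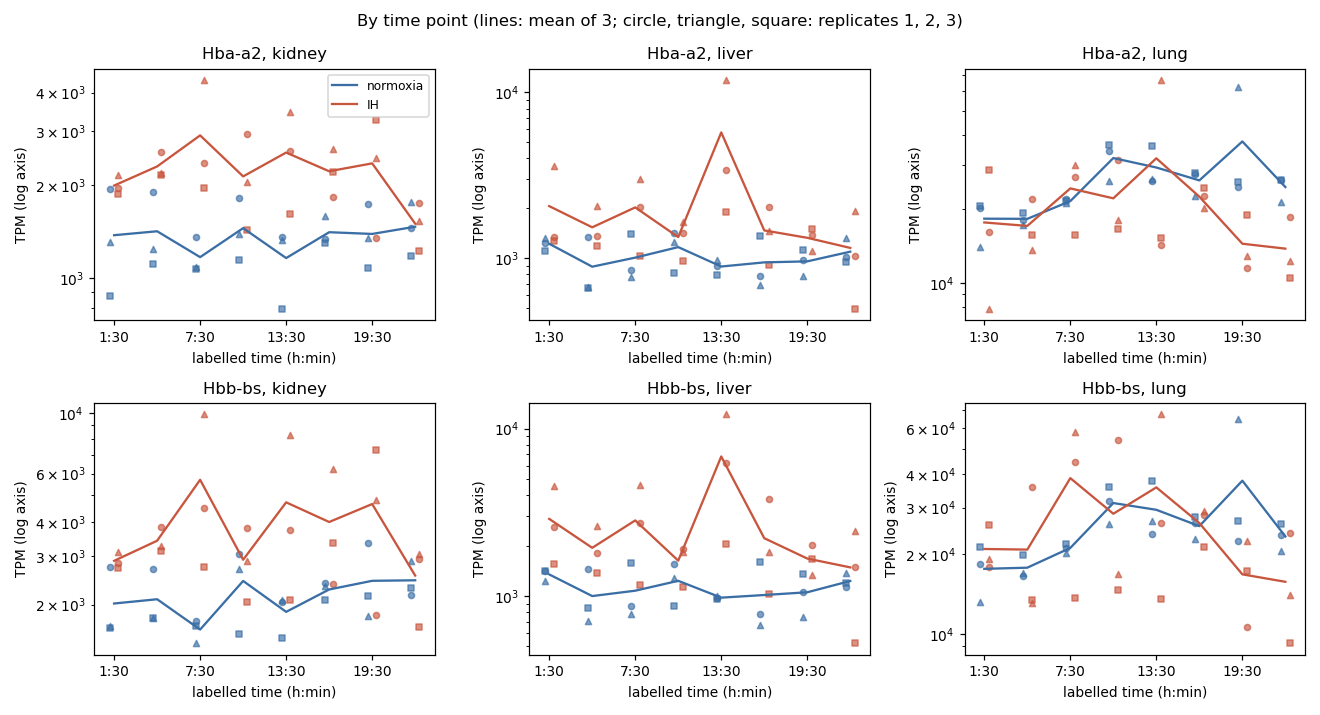
Hba-a2 and Hbb-bs (TPM, log axis) at 8 time points in kidney, liver and lung, normoxia and IH, with markers for the replicate number of each library and lines through the mean of 3. In kidney the IH line of Hbb-bs lies above the normoxia line at 8 of 8 time points, and in liver the widest gap is at 13:30, where 1 IH library reached 12147 TPM.

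In liver the 4 globin rows rose and Alas2 did not. Hbb-bs was at 674 to 1587 TPM in normoxia (median 1093) and at 522 to 12147 TPM after IH (median 1878), 2.15-fold higher (log2 1.10 ± 0.25, adjusted p = 0.00126). The groups overlapped, since the lowest IH library lay below every normoxia library. Hba-a1 had medians of 427 and 584 TPM and rose 1.67-fold (adjusted p = 0.0199), and Hba-a2 had medians of 977 and 1444 TPM and rose 1.81-fold (adjusted p = 0.00721). Hbb-bt had medians of 147 and 254 TPM and rose 1.93-fold (adjusted p = 0.0068). Alas2 was at 67.7 to 105 TPM in normoxia (median 82.3) and at 30.5 to 87.7 TPM after IH (median 63.5), a log2 difference of -0.32 ± 0.12 (adjusted p = 0.0394) that was below 1.5-fold and so was not called. Its mean was lower after IH at 8 of 8 time points, and at 4 of them all 3 IH libraries were below all 3 normoxia libraries. Slc4a1 lay below 1 TPM in all liver libraries and was not tested. Of the 5 genes tested, 4 were called, all higher, where 3.66% of 11334 genes were called and 1.1% were called higher (70 genes higher and 518 lower on TPM as deposited, 125 and 290 as scaled).

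The liver result rested on part of the libraries. The replicate 2 library at 13:30 that stood apart from other livers held the highest Hbb-bs. Without it, the log2 differences were 0.58 for Hba-a1, 0.69 for Hba-a2, 0.96 for Hbb-bs and 0.80 for Hbb-bt, and 3 genes were called, Hba-a1 not among them. Without replicate 1, or without replicate 2, 0 were called (Hbb-bs 0.99 with adjusted p = 0.118, and 0.73 with adjusted p = 0.136). Fitted alone, replicate numbers 1, 2 and 3 gave 1.32, 1.85 and 0.14 for Hbb-bs. Transcripts of other organs moved with the globins in liver. The 5 heart markers summed to 4.11 to 37.4 TPM in normoxia (median 8.72) and to 16.2 to 5044 TPM after IH (median 24.2), and all 5 were called higher. The kidney markers went from a median of 3.36 TPM to 82.4 TPM, with 3 of 3 tested called higher, and the liver markers from 52809 to 36859 TPM, with 2 of 5 called lower. Their part in the globin difference was not tested. Without the library that stood apart, Kap, a kidney androgen-regulated gene, was still higher in liver by 3.75 on the log2 scale, and Myh6, the atrial and ventricular myosin of the mouse heart, by 1.10.

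In lung the α genes, Alas2 and Slc4a1 were lower after IH in the scaled data. Hba-a1 was at 7188 to 28705 TPM in normoxia (median 11332) and at 3564 to 30213 TPM after IH (median 8234), and Hba-a2 at 14025 to 62393 (median 25067) and 7832 to 66648 TPM (median 17281). Alas2 was at 113 to 365 TPM (median 156) and at 56.4 to 343 TPM (median 104), and Slc4a1 at 1.27 to 14.4 TPM (median 4.63) and 0.583 to 7.71 TPM (median 3.96). These groups overlapped widely, and the lowest libraries of each were IH libraries. The log2 differences were -0.76 ± 0.17 for Hba-a1 (adjusted p = 0.000155), -0.73 ± 0.18 for Hba-a2 (adjusted p = 0.000297), -0.88 ± 0.16 for Alas2 (adjusted p = 4.68e-06) and -0.77 ± 0.21 for Slc4a1 (adjusted p = 0.0012), and these 4 were called lower. Hbb-bs (-0.45, adjusted p = 0.039) and Hbb-bt (-0.51, adjusted p = 0.0258) did not reach 1.5-fold. As deposited, Hbb-bs was at 13234.5 to 64516.5 TPM in normoxia (median 23277) and at 9238 to 67376 TPM after IH (median 20259), with means of 25506 and 25444 TPM. Hbb-bt was at 2332 to 9188 (median 3321) and 1133 to 9732 TPM (median 2814), and the mean of both β genes was higher after IH at 5 of 8 time points. In lung 4.39% of 15426 genes were called lower and 9.12% higher.

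The lung calls depended on how libraries were scaled. On TPM as deposited, 0 of the 6 were called, with log2 differences of -0.45 for Hba-a1, -0.43 for Hba-a2, -0.58 for Alas2, -0.51 for Slc4a1, -0.14 for Hbb-bs and -0.20 for Hbb-bt. The median of all lung genes moved by 0.28 between the scalings, from -0.08 to 0.21, and 2908 genes were called higher and 58 lower on TPM as deposited, against 1407 and 677. Relative to that median the values were -0.68 and -0.66 for Hba-a1, -0.66 and -0.63 for Hba-a2, -0.81 and -0.79 for Alas2, -0.69 and -0.72 for Slc4a1, and -0.37 and -0.35 for Hbb-bs. A change of scale moves all genes of a library by nearly the same log2 amount. Values relative to the median therefore had to stay close, and their closeness is no support for the lung calls. Fitted alone, replicate numbers 1, 2 and 3 gave 0.05, -0.30 and -1.10 for Hbb-bs and -0.52, -0.83 and -0.92 for Hba-a1. With a covariate for how many genes a library detected, all 6 were called lower. The surfactant and other lung markers were also lower, 4 of 5 by the call, and their sum went from a median of 170576 TPM to 147277 TPM, with 34578 TPM in the lowest IH library. The part of this in the result was not tested.

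**Figure D4:**
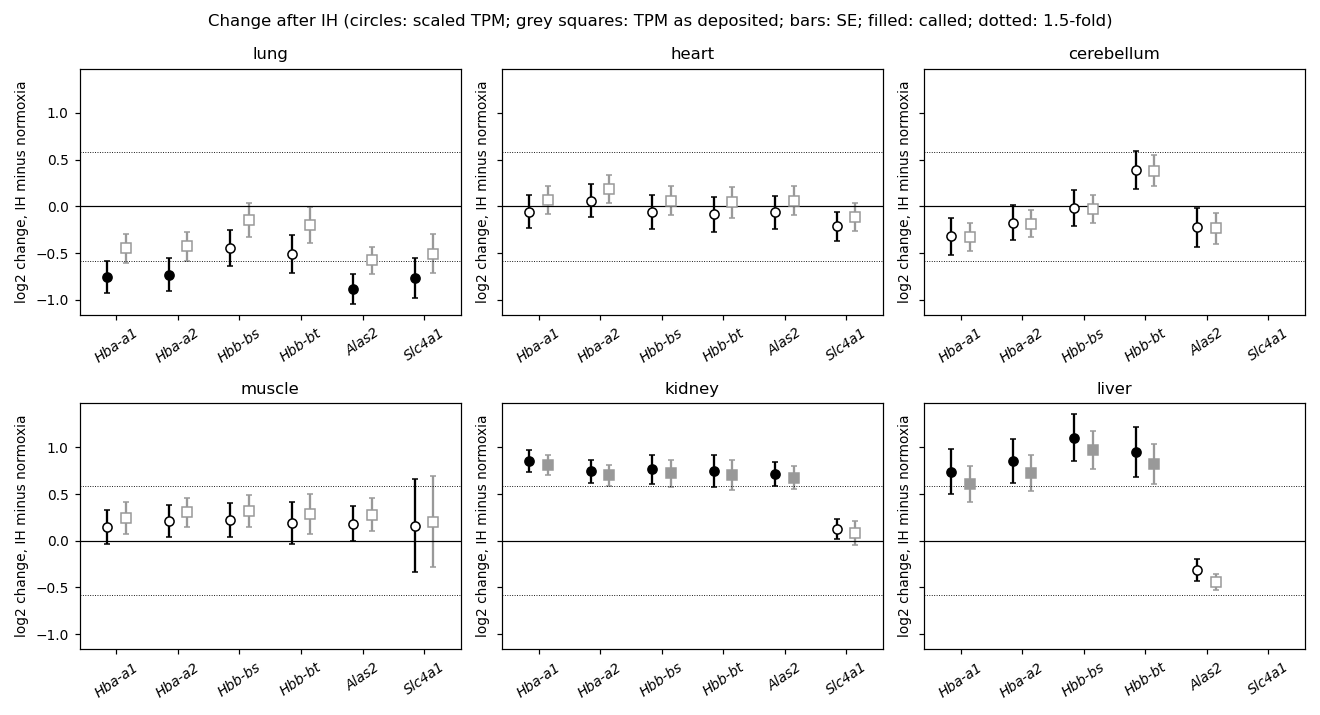
Log2 difference of IH from normoxia for each gene in each organ, with SE bars; circles are scaled TPM, grey squares TPM as deposited, filled symbols passed the call, and dotted lines mark 1.5-fold. Kidney and liver globins lie above 0 and lung genes below it, and in lung the squares lie closer to 0 than the circles.

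Heart, muscle and cerebellum gave no called member. In heart, Hbb-bs was at 10637 to 56051 TPM in normoxia and 11927 to 58366 TPM after IH, a log2 difference of -0.06 ± 0.18 (adjusted p = 0.803), and the other 5 genes lay between -0.21 and 0.06. All heart ranges overlapped nearly in full. In muscle, Hbb-bs was at 1229 to 4459 TPM and 1296 to 7977 TPM (log2 0.22 ± 0.18, adjusted p = 0.502), and the 6 genes lay between 0.15 and 0.22. In cerebellum, Hbb-bs was at 2819 to 11097 TPM and 3629.6 to 17378 TPM (log2 -0.02 ± 0.20, adjusted p = 0.968), and the 5 genes tested lay between -0.32 for Hba-a1 (adjusted p = 0.273) and 0.39 for Hbb-bt (adjusted p = 0.195). The library at 17378 TPM was that of replicate 1 at 10:30, which also held more heart than cerebellum markers. Without the library that stood apart furthest the values of Hba-a1 and Hbb-bt were -0.40 and 0.33. Without all 5 libraries with more heart markers, a setting chosen after the data were seen, they were -0.40 and 0.27, Hbb-bs was -0.16, its highest IH library was at 16651 TPM, and 0 were called. Over all genes, 2.95% were called in heart, 0.374% in muscle and 2.64% in cerebellum, and 0 of 6, 0 of 6 and 0 of 5 members. At an unadjusted p of 0.05, 0 members passed in these organs. In heart 141 genes were called higher and 236 lower, and 326 and 162 on TPM as deposited.

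The treatment difference was tested between organs in 1 model of all libraries. The interaction of treatment and organ passed for Hba-a1 (adjusted p = 3.47e-09), Hba-a2 (6.96e-09), Alas2 (2.49e-08), Hbb-bs (3.66e-07) and Hbb-bt (2.32e-05), and not for Slc4a1 (0.101). Here 82.3% of 15551 genes passed, so passing this test does not set the members apart. Against lung, the difference in kidney was larger by 1.67 for Hba-a1, 1.54 for Hba-a2, 1.27 for Hbb-bs, 1.31 for Hbb-bt, 1.66 for Alas2 and 0.85 for Slc4a1 on the log2 scale, all past the test, with 47.7% of all genes past it. For liver against lung the values were 1.57, 1.66, 1.63, 1.54, 0.64 and 0.89 in the same order, all past the test (54.3% of all genes). Muscle exceeded lung by 0.71 for Hbb-bs to 1.10 for Alas2, with all 6 genes past the test (39.5%). Heart exceeded lung for the α genes and Alas2 but not for Hbb-bs (0.46, adjusted p = 0.154), 3 of 6 genes (57.7%). Cerebellum did so for Hba-a2, Hbb-bt and Alas2, 3 of 6 genes (51.3%). All of these contrasts share the lung libraries. They keep the liver and cerebellum libraries that stood apart, and were not fitted without those libraries alone. On TPM as deposited, 14 of 30 contrasts passed, against 24 as scaled. Without replicate 1, 2 or 3, 18, 18 and 17 passed, and 30 passed with a covariate for genes detected. Slc4a1 was below 1 TPM in every liver library, so its liver contrast rests on low values.

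Because the α and β rows of a library share its scale, their ratios were compared as well, a comparison chosen after the data were seen. In 24 ratios (4 in each organ), treatment labels were permuted 100000 times within time points, and p-values were adjusted over the 24. In cerebellum, the ratio of Hbb-bt to Hbb-bs ran from 0.0835 to 0.172 in normoxia (median 0.118) and from 0.121 to 0.201 after IH (median 0.153), a log2 difference of 0.41 (permutation test, adjusted p = 6e-05), and 0.41 without the library that stood apart and 0.43 without all 5 with more heart than cerebellum markers. It was 0.44, 0.71 and 0.07 within replicate numbers 1, 2 and 3. In liver the same ratio fell from a median of 0.136 to 0.125 (log2 -0.15, adjusted p = 0.00024, and -0.16 without the library that stood apart), and the difference was -0.16, -0.19 and -0.11 within replicate numbers. The ratio of Hba-a1 to Hba-a2 differed by less. It was lower after IH, with log2 differences of -0.15 in cerebellum, -0.12 in heart, -0.11 in liver and -0.06 in muscle, and higher by 0.11 in kidney, all past the permutation test (adjusted p of 0.00338 or less). These pairs share most of their transcript sequence. The ratio of Alas2 to Hbb-bs fell from a median of 0.0727 to 0.0273 in liver (log2 -1.42, adjusted p = 6e-05, and -1.32 without the library that stood apart). In cerebellum the same ratio was lower by the test (log2 -0.21, adjusted p = 0.0118), but it was -0.58, -0.09 and 0.03 within replicate numbers 1, 2 and 3, and -0.15 without the 5 libraries (permutation p = 0.0522, unadjusted). In lung it fell from 0.00653 to 0.00533 (log2 -0.44, adjusted p = 0.00024), and in kidney it was 0.00334 and 0.00365 (log2 -0.01, adjusted p = 0.964). Within replicate numbers 1, 2 and 3 the lung difference was -0.56, -0.63 and -0.13. The kidney difference was 0.02, -0.46 and 0.41, so that numbers 2 and 3 had opposite signs.

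Hbb-bs against Hba-a2, a ratio of a β to an α gene, spread widely in lung after IH. Normoxia libraries lay between 0.906 and 1.05 (24 libraries), while IH libraries ran from 0.863 to 2.45, a log2 difference of 0.29 (permutation test, adjusted p = 0.0116). The IH libraries were parted at a ratio of 1.4, a cut set on the ratio itself. Of them, 8 had ratios of 1.44 to 2.45, of which 4 carried replicate number 1, 4 number 2 and 0 number 3. The other 16 lay between 0.863 and 1.30. Within replicate numbers 1, 2 and 3 the difference of IH from normoxia was 0.59, 0.47 and -0.20. The 8 libraries also had 25281 to 28284 genes detected, against 21746 to 25400 in normoxia, and 11606 to 27813 TPM of Sftpc, the surfactant protein C gene of alveolar cells, against 28353 to 40467 TPM. The other 16 IH libraries had 23622 to 26123 genes detected and 24902.5 to 37308 TPM of Sftpc. The part of either in the ratio was not tested. The same ratio rose in liver (log2 0.25, adjusted p = 0.00016) and cerebellum (0.16, adjusted p = 0.0107) and fell in heart (-0.12, adjusted p = 0.0004). Within replicate numbers 1, 2 and 3 it was 0.53, 0.30 and -0.08 in liver and 0.46, 0.09 and -0.07 in cerebellum, so that number 3 had the other sign, and -0.25, -0.09 and -0.02 in heart. Without the 5 cerebellum libraries it was 0.12 there (unadjusted permutation p = 0.0227).

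**Figure D5:**
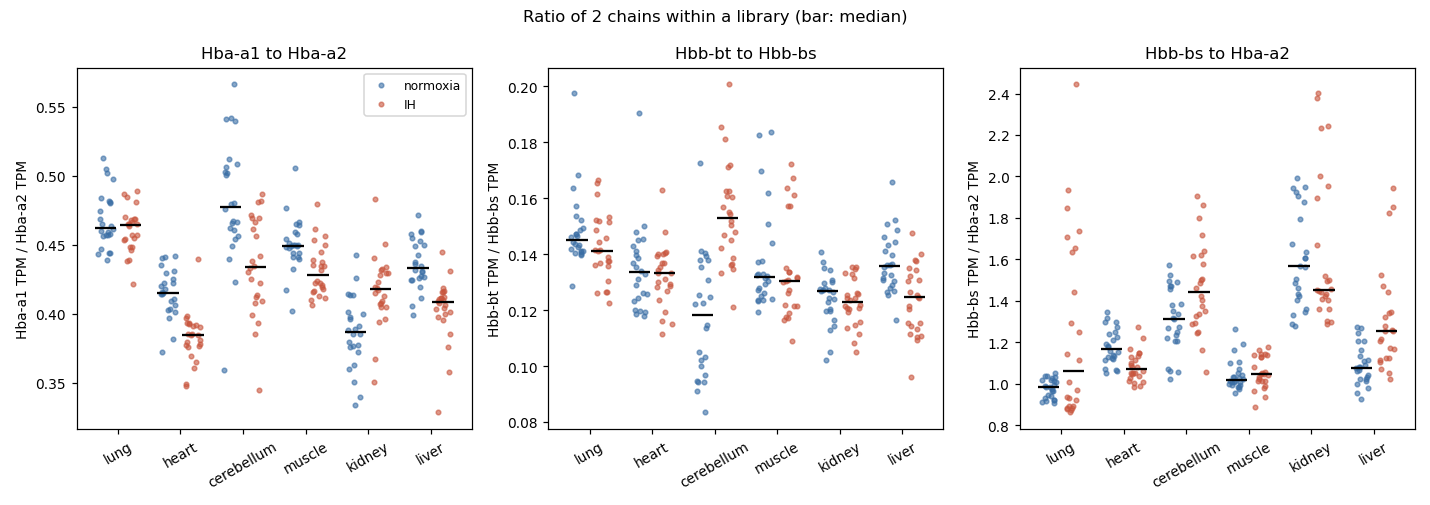
Ratios within each library of Hba-a1 to Hba-a2, Hbb-bt to Hbb-bs and Hbb-bs to Hba-a2, by organ and treatment, 1 point a library with the median as a bar. In cerebellum the Hbb-bt to Hbb-bs ratio is shifted up after IH, and in lung 8 IH libraries reach 1.44 to 2.45 for Hbb-bs to Hba-a2 where no normoxia library exceeds 1.05.

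Rhythms were sought with a cosine of 24 hours in each organ and treatment. Of 70 fits of members, 0 passed at an adjusted p of 0.05 in limma (lowest 0.136), 6 had an unadjusted p under 0.05, and a rank test against cosine curves called 3. Over all genes, 5.2% of the cosine fits and 1.45% of the rank tests passed. The 6 were the 4 globin rows and Slc4a1 in normoxic lung and Alas2 in lung after IH. In normoxic lung the fitted peaks of the globins lay between 15.3 and 15.7 h with log2 amplitudes of 0.36 to 0.39, and the rank test gave adjusted p of 0.0317 for Hbb-bs, 0.0353 for Hba-a2 and 0.0465 for Hbb-bt. Hbb-bs there was at 18435, 13234.5 and 21225 TPM at 1:30 and at 31883, 25999.7 and 35761 TPM at 10:30, and the highest library, at 64516.5 TPM, was replicate 2 at 19:30. In the other organs the lowest adjusted p of the rank test was 0.494.

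Muscle libraries differed in red cell precursor transcripts. Slc4a1 was at 9.46 to 34.8 TPM in 10 of 48 muscle libraries and at 0.0624 to 3.79 TPM in the other 38. The 10 libraries also held 2.04 to 6.01 TPM of Klf1 and 0.930 to 2.65 TPM of Gata1, against at most 0.845 and 0.453 TPM in the others. Hbb-bs was at 3676 to 7977 TPM in them and at 1229 to 2804 TPM in the others, and Alas2 at 25.5 to 53.5 and 7.91 to 17.1 TPM, without overlap. Ngp and Camp, granule genes of developing neutrophils, were at 57.4 to 149 TPM and 63.4 to 119 TPM in the same libraries, against medians of 0.0700 and 0.0888 TPM and highest values of 55.5 and 43.8 TPM in the rest. Both treatments were among the 10, of which 9 carried replicate number 3 and 1 number 1. These sets were defined by Slc4a1 itself, so no test is given.

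The other genes of red cell biology were taken as lists. Of 12 heme synthesis genes, Alas2 was the 1 called in kidney. In lung Alad (-0.60) and Alas2 were called lower and Ppox (0.70) higher, and 0 were called in liver, heart, muscle and cerebellum. On TPM as deposited Ppox (1.00) stayed called and Alad (-0.30) did not. Of the reticulocyte proteins, 16 of 18 listed were used. Bpgm (-0.75), which makes the small phosphate compound that lowers the oxygen affinity of hemoglobin, and Tent5c (-0.67) were called lower in lung, and neither was called on TPM as deposited (-0.45 and -0.37). The list's median in lung was -0.47, against -0.08 over all genes, and 0 of its genes were called in each other organ. Of 7 erythroid transcription factors, Ldb1 was called higher in cerebellum (0.64, and 0.44 and 0.46 without a call when replicate 1 or 2 was left out), and 0 were called elsewhere, and of the 6 genes of erythropoietin and iron handling 0 were called in any organ. Erythropoietin itself (Epo) reached at most 0.340 TPM in a muscle library and 0.259 TPM in kidney. In hemoglobin and heme clearance, the receptor gene Lrp1 was higher in kidney (0.75), a call that held without each replicate, and lower in liver (-1.13), a call lost without replicate 1 (-0.84) or 2 (-0.71). Haptoglobin (Hp), the plasma protein that binds free hemoglobin, was higher in heart (0.88) but not called there without replicate 1 (0.62) or 2 (0.85), and lower in lung (-0.78) but not called on TPM as deposited (-0.48). The embryonic globins were near 0. The highest value of Hbb-bh1 was 1.69 TPM in a cerebellum library, and Hbb-y and Hbb-bh2 were listed at 0 in all liver libraries. Myoglobin (Mb), which stores oxygen in heart and skeletal muscle, was higher in liver after IH (1.49, and 1.14 without the library that stood apart), where the heart markers also rose.

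Other blood cells were read beside the red cell genes. In lung, 7 of 11 platelet genes were called lower, among them Gp1bb (-0.89) and Treml1 (-0.77), as were 2 of 7 B cell genes, Cd79a (-0.89) and Cd79b (-0.87), and 2 of 7 T cell genes, Trac (-0.76) and Cd3g (-0.62). Of 8 endothelial genes, 4 were lower, including Cdh5 (-0.77) and Kdr (-0.76). Of 11 neutrophil genes, Csf3r (0.72) was higher and Ltf (-0.80) lower. With that covariate for genes detected, Cd79a (-1.16) and Gp1bb (-0.93) remained called and Cdh5 (0.30), Kdr (0.07) and Ltf (0.01) did not. On TPM as deposited, Cd79a (-0.59), Gp1bb (-0.62) and Csf3r (1.01) remained called and the other blood and endothelial genes named here did not. In liver the neutrophil genes S100a8 (0.75) and S100a9 (0.65) were called higher, the 2 of that list that were tested, and neither was called without replicate 1 or without replicate 2. In kidney 0 genes of the platelet, neutrophil, B cell, T cell and endothelial lists were called. Only 2 of 11 platelet, 2 of 11 neutrophil, 1 of 7 B cell and 1 of 7 T cell genes were tested there. All 8 endothelial genes were tested.

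Levels of Hbb-bs were also compared between organs over libraries with the same treatment, time point and replicate number. Of 30 relations, 3 passed in Pearson's r. After IH, kidney and lung gave r = 0.70 (rho 0.68, p = 0.00018, adjusted p = 0.0054, 0.76 without the 2 farthest pairs) and liver and lung r = 0.62 (rho 0.43, p = 0.00152, adjusted p = 0.0228, 0.48 without 2). In normoxia, kidney and liver gave r = 0.56 (rho 0.45, p = 0.00443, adjusted p = 0.0443, 0.54 without 2). Only the kidney and lung relation also passed in Spearman's rho (adjusted p = 0.0138) and without the 2 farthest pairs (adjusted p = 0.0018, but 0.265 on TPM as deposited). The liver and lung relation after IH includes the liver library that stood apart, replicate 2 at 13:30, at 12147 TPM. The lung library paired with it was the highest of its group, at 67376 TPM. The labels do not say that a shared number marks a shared mouse.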

How the data were processed

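RNA of 6 organs from normoxia and IH mice was sequenced by the authors with a directional library kit. The deposited values are TPM, which the authors computed with kallisto against Ensembl release 102 (mm10), and their processing notes also name bcl2fastq, FastQC 0.11.3 and DESeq2. TPM sums lay between 989211 and 999188. The study's methods give depth for the series but not for single libraries, and TPM hold no counts, so no counting interval is printed.

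Libraries were grouped by the organ and treatment of their table and the time point and replicate number of their column, and 0 libraries were identical to another. For IH against normoxia, TPM were divided by a median-of-ratios scale within each organ, transformed as log2(TPM + 0.5), which understates changes of low genes, and fitted with limma 3.58.1 (trend, R 4.3.3) for genes averaging 1 TPM or more. P-values were adjusted over all genes tested (Benjamini-Hochberg), two-sided, and a gene was called at an adjusted p of 0.05 and 1.5-fold. Differences between organs, normoxia levels (TPM as deposited) and cosines of 24 hours (genes reaching 1 TPM) were limma fits as well. Correlations and ratios were tested by 100000 permutations, two-sided, and adjusted over 60, 30 and 24 values. Python 3.11.15, numpy 2.4.6, scipy 1.17.1, pandas 2.3.3, matplotlib 3.10.9 and Biopython 1.88 were used. The fits were tested on simulated data.

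Alternatives were another pseudocount, another filter, TPM as deposited, time point, replicate block, genes detected, array weights, each replicate or time point left out, the libraries that stood apart left out, and, for rhythms, a rank test. Each replicate number alone, each organ with its own spread and the cerebellum without its libraries richest in heart markers were chosen after seeing the data. Named genes were the 6 members, from each list at most 4 called genes per organ with the largest change, and the 8 other genes most like Hbb-bs. The members and lists were chosen with earlier results of these data known. Ahsp and Fam46c of the reticulocyte list were not used here, nor were protein sequences, and some genes that the rule would name are not reported here.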

Additional observations from a re-analysis of the deposited data

Results flagged for a closer look

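The difference of IH from normoxia was not the same in all organs for 5 of the 6 genes, by the interaction of treatment and organ in limma: adjusted p was 2.49e-08 for Alas2, 3.47e-09 for Hba-a1, 6.96e-09 for Hba-a2, 3.66e-07 for Hbb-bs and 2.32e-05 for Hbb-bt. Over all genes 82.3% passed this test, so passing it does not set the members apart. Against lung, kidney differed by 1.66 (Alas2), 1.67 (Hba-a1), 1.54 (Hba-a2), 1.27 (Hbb-bs), 1.31 (Hbb-bt) and 0.85 (Slc4a1) on the log2 scale. Liver differed from lung by 0.64 (Alas2), 1.57 (Hba-a1), 1.66 (Hba-a2), 1.63 (Hbb-bs), 1.54 (Hbb-bt) and 0.89 (Slc4a1). Muscle differed from lung by 1.10 (Alas2), 0.94 (Hba-a1), 0.98 (Hba-a2), 0.71 (Hbb-bs), 0.74 (Hbb-bt) and 0.87 (Slc4a1). Heart differed from lung by 0.89 (Alas2), 0.78 (Hba-a1) and 0.87 (Hba-a2). Cerebellum differed from lung by 0.71 (Alas2), 0.61 (Hba-a2) and 0.95 (Hbb-bt). The liver and cerebellum contrasts keep the libraries that stood apart. Of all genes, 47.7% passed against lung in kidney, 54.3% in liver, 39.5% in muscle, 57.7% in heart and 51.3% in cerebellum. With each organ given its own spread, the adjusted p of Hba-a2 in cerebellum became 0.0643 and that of Slc4a1 in muscle 0.137. On TPM as deposited, 14 of 30 contrasts of the members with lung passed, against 24 as scaled, and Alas2 in liver differed from lung by 0.13 (adjusted p = 0.618). Without replicate 1, 2 or 3, 18, 18 and 17 contrasts passed, and 30 with a covariate for genes detected.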

How the results depend on the processing

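The number of members called after IH was 5 in kidney, 4 in liver, 4 in lung and 0 elsewhere. In kidney it was 3 with a covariate for genes detected, and between 2 and 5 when replicates or time points were left out or replicate numbers taken alone. In liver that range was 0 to 4, in lung 0 to 6 and in muscle 0 to 1 (Hba-a2 with replicate 1 alone). In lung it was 0 on TPM as deposited. Rhythmic members numbered 0, 3 by the rank test, and 0 to 1 with replicates left out (Alas2 in kidney after IH, without replicate 3, adjusted p = 0.0225). Of 30 neighbouring levels 24 differed, and 22 to 24 with a replicate left out. Of 30 relations of Hbb-bs between organs 3 passed, and 1 without the 2 farthest pairs. Of all values recomputed, 967 kept their side of the threshold, among them 44 uncalled values that took another sign, 74 lost the threshold, 19 gained it and 0 reversed a called value.

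Over all genes, calls fell in cerebellum from 393 to 245 with genes detected and rose to 677 with array weights and 771 without the library that stood apart (720 without all 5 with more heart than cerebellum markers), and were 69, 32 and 1959 without replicates 1, 2 and 3. Heart went from 377 to 169 (mean of at least 5 TPM) and 139 (genes detected), kidney from 101 to 54 (5 TPM), liver from 415 to 719 (array weights), and to 48, 72 and 1511 without replicates 1, 2 and 3, lung from 2084 to 1182 (5 TPM), 1363 (array weights) and 3432 (without replicate 3), and muscle from 48 to 31 (5 TPM) and 21 (without replicate 2). The cause was not tested.

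With the replicate block the counts were again 5, 4 and 4 in kidney, liver and lung and 0 elsewhere. The labels do not say what a replicate number marks, and of 24 pairs in each organ 5 to 16 had correlated deviations over 0.1, so the numbers were not taken as pairs. Depth was not stated per library, and libraries of several organs may share a mouse.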
